A study of Mus musculus with 24 samples.

Results

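The genes described here are 10 subunits of integrins, the receptors by which cells hold on to the matrix around them. They were chosen by name, as subunits not typical of leukocytes, and are 10 of the 35727 genes in the count table: 7 alpha subunits (Itga1, Itga2, Itga5, Itga6, Itga8, Itga9 and Itgav) and 3 beta subunits (Itgb1, Itgb3 and Itgb5). All 10 had enough counts to be tested. Messenger RNA was sequenced from mouse heart cells grown in EGM2, an endothelial growth medium. Control fibroblasts were compared with cells that the labels call iEC or aiEC, carrying Erg, Sox17 or SEG, each taken at day 3 and at day 7, with 3 libraries per group and 24 in all. Erg and Sox17 are transcription factors of endothelium. SEG is not spelled out in the labels, and its libraries held high levels of both Erg and Sox17. The labels used here give no strain, age, vector or promoter. The labels do not state that replicates are independent cultures or animals. All p-values therefore rest on the scatter among the 3 libraries of each group, which may be technical.

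Integrins are pairs of 1 alpha and 1 beta chain, and the pair decides which matrix protein is bound. Itga5 and Itga8, both with Itgb1, and Itgav, with Itgb1, Itgb3 or Itgb5, bind proteins that carry the arginine-glycine-aspartate (RGD) motif, such as fibronectin and vitronectin. Itga1 and Itga2 pair with Itgb1 to bind collagens, Itga6 pairs with Itgb1 or Itgb4 to bind laminins, and Itga9 pairs with Itgb1 to bind tenascin and other ligands. Endothelial cells rest on a basement membrane of laminin and type IV collagen, while fibroblasts sit among fibrillar collagen and fibronectin.

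Total counts ran from 18794422 to 44586227 per library. The replicate 1 libraries of Sox17 and of SEG at day 7 stood apart: ribosomal protein genes took 7.76% and 5.40% of their counts, against 3.14% to 4.96% in the other 22, and mitochondrial genes took 0.880% in the first. Both are called the outlying libraries below, and calls that change without them are given with the results. They are in the estimate of the spread that all groups share, so leaving them out also changes tests at day 3. Without both, a larger share of all genes passed in 21 of the 21 comparisons (63.2% rather than 46.1% with Erg at day 3), so calls gained in this way are not particular to the subunits. Of the 9 fibroblast markers, 7, 9 and 9 fell at day 3 with Erg, Sox17 and SEG, and 1 rose with Erg. Of all genes tested, 23.5%, 19.6% and 20.2% fell. Of the 12 endothelial markers, 9, 6 and 10 rose and 1, 2 and 1 fell, where 22.6%, 20.8% and 20% of all genes rose. The endothelial junction gene Cldn5 was at 0 in all Sox17 and control libraries. In bulk RNA, fewer cells of a type and less RNA per cell cannot be told apart.

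Against control, the 10 subunits changed in a different way with each factor. Among these 10, Erg was accompanied above all by more Itgb3. Sox17 was accompanied by a near loss of Itga8 and lower Itgb3, Itgb5 and Itgb1. SEG was accompanied by more of the collagen subunits Itga2 and Itga1 and of Itga9. Some integrin genes outside the 10 changed by more, among them Itgb4 and Itga7 with Erg and Itgb8 with Sox17, as given further below. At day 3, 6 of the 10 subunits passed the test with Erg (46.1% of all 14804 genes tested did), 8 with Sox17 (40.4%) and 7 with SEG (40.2%). Split by direction, 3 rose and 3 fell with Erg (22.6% and 23.5% of all genes), 1 rose and 7 fell with Sox17 (20.8% and 19.6%), and 5 rose and 2 fell with SEG (20% and 20.2%). At day 7, 5 passed with Erg (48.5%), 8 with Sox17 (54.5%) and 6 with SEG (44.3%). Here 2 rose and 3 fell with Erg (23.7% and 24.8%), 2 rose and 6 fell with Sox17 (29.5% and 25%), and 5 rose and 1 fell with SEG (22.5% and 21.8%). With Erg the share of subunits that passed at day 7 was near that of all genes. The median log2 change of the 10 subunits was −0.61 with Sox17 and 0.29 with SEG at day 3, and −0.72 and 0.76 at day 7, where the medians of all genes lay between 0.01 and 0.05. These comparisons share the control libraries of their day.

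**Figure D1:**
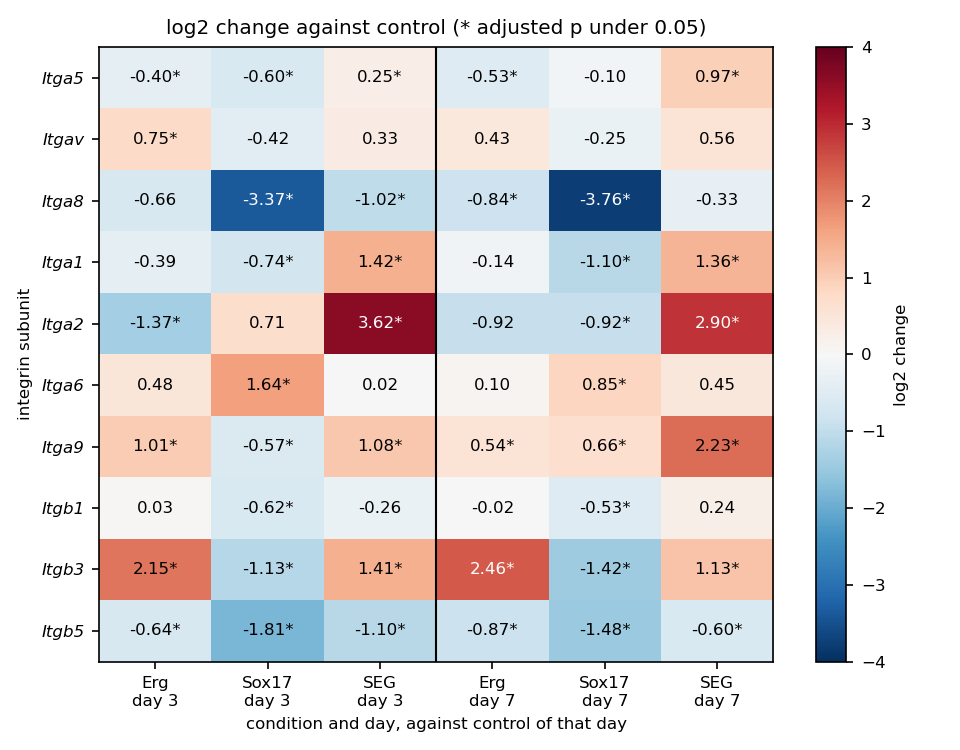
Log2 change of each of the 10 subunits (rows) against the control of the same day, for each of the 3 conditions on each day (columns), 3 libraries per group; red is higher, blue is lower and a star marks an adjusted p under 0.05. Itga2 with SEG (3.62 and 2.90) is the highest value and Itga8 with Sox17 (−3.37 and −3.76) the lowest.

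Itga5, the fibronectin receptor's alpha chain, rose with SEG and fell with Erg (chromosome 15, 103344286 to 103366763, minus strand of mm10). It stood at 689, 661 and 676 CPM (the scaled counts per library, as edgeR's cpm gives them) in the 3 control libraries of day 3, at 507, 528 and 500 with Erg, at 402, 465 and 470 with Sox17 and at 812, 792 and 806 with SEG. The groups did not overlap with control in any of these comparisons: SEG lay above it by 0.25 on the log2 scale (standard error 0.067, adjusted p = 0.00473), and Erg (−0.40, adjusted p = 5.12e-05) and Sox17 (−0.60, adjusted p = 3.22e-07) below it. By day 7 control had fallen to 213, 229 and 239 CPM and Erg to 156, 159 and 157, while SEG held 441, 447 and 441. The distance from control was then 0.97 with SEG (adjusted p = 2.81e-10), or 1.95-fold, and −0.53 with Erg (adjusted p = 1.98e-06). Sox17, at 197, 215 and 222 CPM, overlapped with control (log2 change −0.10, adjusted p = 0.208).

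Itgav, the alpha chain shared by several RGD receptors (chromosome 2, 83724397 to 83806916, plus strand), rose with Erg at day 3. In the libraries of day 3 it stood at 411, 357 and 365 CPM in control and at 620, 662 and 624 with Erg, with no overlap, and this rise passed (log2 change 0.75, standard error 0.27, adjusted p = 0.0262). The call was lost when replicate 2 or 3 of control was left out (adjusted p = 0.0774 and 0.0719) or replicate 2 or 3 of Erg (0.0648 and 0.0514). With Sox17 it held 315, 288 and 245 CPM and with SEG 480, 421 and 523, neither of which passed against control at day 3, while Sox17 was below Erg (−1.17, adjusted p = 0.000941). At day 7 control held 274, 284 and 269 CPM and Erg 340, 459 and 314. Replicate 1 was far below the others in both outlying groups: 112 against 277 and 306 with Sox17, and 255 against 469 and 495 with SEG. None of the 3 conditions passed at day 7 with all libraries. Without the outlying SEG library alone, Itgav was higher in SEG (log2 change 0.85, adjusted p = 0.0121), and without both outlying libraries the differences of SEG (0.33, adjusted p = 0.0135) and Sox17 (−0.41, adjusted p = 0.00237) at day 3 and of Erg at day 7 (0.48, adjusted p = 0.000591) passed as well.

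Itga8, the partner of Itgb1 in the receptor for nephronectin, lay far below control with Sox17 (chromosome 2, 12106632 to 12301922, minus strand). Control held 5.69, 6.59 and 6.35 CPM at day 3 and 21.1, 19.6 and 17.7 at day 7. With Sox17 it held 0.649, 0.647 and 0.463 CPM at day 3 and 0.681, 2.05 and 1.66 at day 7, so every Sox17 library lay far below every control library. The log2 change was −3.37 at day 3 (standard error 0.35, adjusted p = 1.06e-07) and −3.76 at day 7 (0.31, adjusted p = 3.39e-09), which is 10.6-fold and 13.3-fold less. Without the outlying libraries the change at day 7 was −3.34. SEG held 3.32, 2.07 and 3.78 CPM at day 3, below control (−1.02, adjusted p = 0.00886), and 9.32, 18.5 and 18.6 at day 7, where it overlapped with control (−0.33, adjusted p = 0.342). The day 3 call was lost without replicate 2 of SEG (−0.80, adjusted p = 0.0595). Erg held 9.42, 12.1 and 11.1 CPM at day 7, below control (−0.84, adjusted p = 0.0146), a call lost without replicate 1 of Erg (−0.75, adjusted p = 0.0616), and its lower level at day 3, 3.93 ± 0.299 CPM (SD, n = 3), did not pass (adjusted p = 0.0746) but did without both outlying libraries (adjusted p = 0.00125).

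The reference promoter of Itga8, the 250 bases before the start of its transcript, is shown because the fall was the deepest of the 10 and Sox17 binds DNA. Capitals mark the letters GGAA or TTCC, the core that ETS factors such as Erg bind, and ACAAT or ATTGT, the core that SOX factors bind, read on both strands. The sequence is RefSeq's, at chr2:12301945-12302194 on the minus strand of GRCm38.p6.
Itga8: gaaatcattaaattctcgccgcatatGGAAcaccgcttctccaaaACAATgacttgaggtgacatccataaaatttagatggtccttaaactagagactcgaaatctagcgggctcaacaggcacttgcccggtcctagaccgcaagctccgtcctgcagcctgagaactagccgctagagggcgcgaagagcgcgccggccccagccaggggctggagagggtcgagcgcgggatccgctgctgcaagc
It holds 1 match of each core. The windows of Itga5 and Itga9 also hold 1 match of the SOX core each. Such short words are common: 93.4% of 32851 promoters of this length hold the ETS core and 27.7% hold the SOX core. Whether either factor binds there was not measured. The promoter table holds 8 of the 10 subunits, and Itga6 and Itgb3 are named only.

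The collagen-binding subunits Itga2 and Itga1 had the highest log2 changes of the alpha chains with SEG at day 3. For Itga2, a receptor chain for collagens and laminins in epithelia, platelets and some endothelium, control held 6.08, 4.90 and 4.76 CPM at day 3 and SEG 68.7, 58.6 and 65.9. At day 7 control held 3.69, 4.82 and 5.29 CPM and SEG 20.03, 42.7 and 40.8, the outlying library being the lowest of the 3. SEG thus lay 12.3-fold above control at day 3 (log2 change 3.62, standard error 0.38, adjusted p = 1.38e-07) and 7.51-fold above it at day 7 (2.90, 0.37, adjusted p = 1.7e-06), with no overlap at either day. Erg alone had the opposite sign at day 3, with 1.86, 1.85 and 2.28 CPM (−1.37, adjusted p = 0.00829), and at day 7 its 2.46 ± 0.410 CPM (SD, n = 3) did not pass (adjusted p = 0.0595), although it did without both outlying libraries (adjusted p = 0.00134). With Sox17 alone the libraries of day 3 held 11.3, 8.80 and 5.56 CPM, overlapping with control (0.71, adjusted p = 0.127, and 0.74, adjusted p = 0.00146, without both outlying libraries). Those of day 7 held 0.817, 3.46 and 3.21, which was called lower (−0.92, adjusted p = 0.0497). That call was lost without the outlying Sox17 library (−0.47, adjusted p = 0.222) and without replicate 2 or 3 of control (adjusted p = 0.103 and 0.137), and also with other size factors (0.0512) or without the filter on low counts (0.0756).

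Itga1, a receptor chain for collagen IV and other collagens on fibroblasts, smooth muscle and microvascular endothelium, also rose in SEG. It held 27.2, 28.2 and 29.8 CPM in control and 79.8, 72.3 and 76.1 with SEG at day 3, and 53.3, 47.3 and 45.0 against 92.7, 142 and 140 at day 7. Every SEG library was above every control library, by 1.42 on the log2 scale at day 3 (standard error 0.23, adjusted p = 4.69e-05) and 1.36 at day 7 (0.23, adjusted p = 5.57e-05). With Sox17 it fell, to 18.9, 18.01 and 14.2 CPM at day 3 (−0.74, adjusted p = 0.0153, lost without replicate 3 of Sox17, adjusted p = 0.0736) and to 12.03, 26.9 and 29.2 at day 7 (−1.10, adjusted p = 0.000464). The day 7 fall was −0.75 without both outlying libraries. Erg held 21.7 ± 1.72 CPM at day 3 and 44.1 ± 7.87 at day 7 (SD, n = 3), and neither passed, while the day 3 difference did without both outlying libraries (−0.37, adjusted p = 0.00659). Beside these levels, 7 of 8 smooth muscle markers rose with SEG at each day and 1 fell. Of all genes, 20% rose and 20.2% fell with SEG at day 3, and 22.5% and 21.8% at day 7. The markers' summed CPM ran from 517 to 588 in control and from 1198 to 1509 in SEG at day 3, and from 143 to 159 against 1840 to 2119 at day 7. With Sox17, where Itga1 fell, 5 of the 8 rose and 1 fell at each day. Of all genes, 20.8% rose and 19.6% fell with Sox17 at day 3, and 29.5% and 25% at day 7. The sum with Sox17 ran from 1905 to 2772 CPM at day 3 and from 2618 to 4462 at day 7. None of the 8 was at 0 in a group. Their part in the level of Itga1 was not tested.

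Itga1 (chromosome 13, 114953096 to 115101964, minus strand of mm10) and Itga2 (chromosome 13, 114833081 to 114932100, minus strand) are neighbours, and both rose in SEG, so both promoters are shown as RefSeq gives them on GRCm38.p6, at chr13:115101965-115102214 and chr13:114932101-114932350 on the minus strand. Capitals mark the same 2 cores as above.
Itga1: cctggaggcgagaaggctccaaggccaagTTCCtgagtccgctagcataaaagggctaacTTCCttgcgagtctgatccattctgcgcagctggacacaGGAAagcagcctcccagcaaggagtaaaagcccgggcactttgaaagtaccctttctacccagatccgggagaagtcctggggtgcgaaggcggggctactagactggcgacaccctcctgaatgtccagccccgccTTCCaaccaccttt
Itga2: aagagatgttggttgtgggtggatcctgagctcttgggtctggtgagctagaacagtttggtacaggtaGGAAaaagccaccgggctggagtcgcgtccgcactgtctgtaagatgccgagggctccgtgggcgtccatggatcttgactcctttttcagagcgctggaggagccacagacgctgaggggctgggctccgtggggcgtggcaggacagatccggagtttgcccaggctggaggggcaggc
Itga1 holds 4 matches of the ETS core and Itga2 holds 1, where the median promoter holds 3, and neither holds the SOX core. Itgb5, described below, holds neither core. No match says only that these letters are not in this window. Pelo, which encodes a factor of ribosome rescue and lies inside the span of Itga1, stood at 17.1 ± 0.373 CPM in control and 20.7 ± 1.60 in SEG at day 3 (SD, n = 3). The predicted gene Gm49395 shares 685 bases of exon with Itga1 on the same strand and held 0.0421 to 2.85 CPM.

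**Figure D2:**
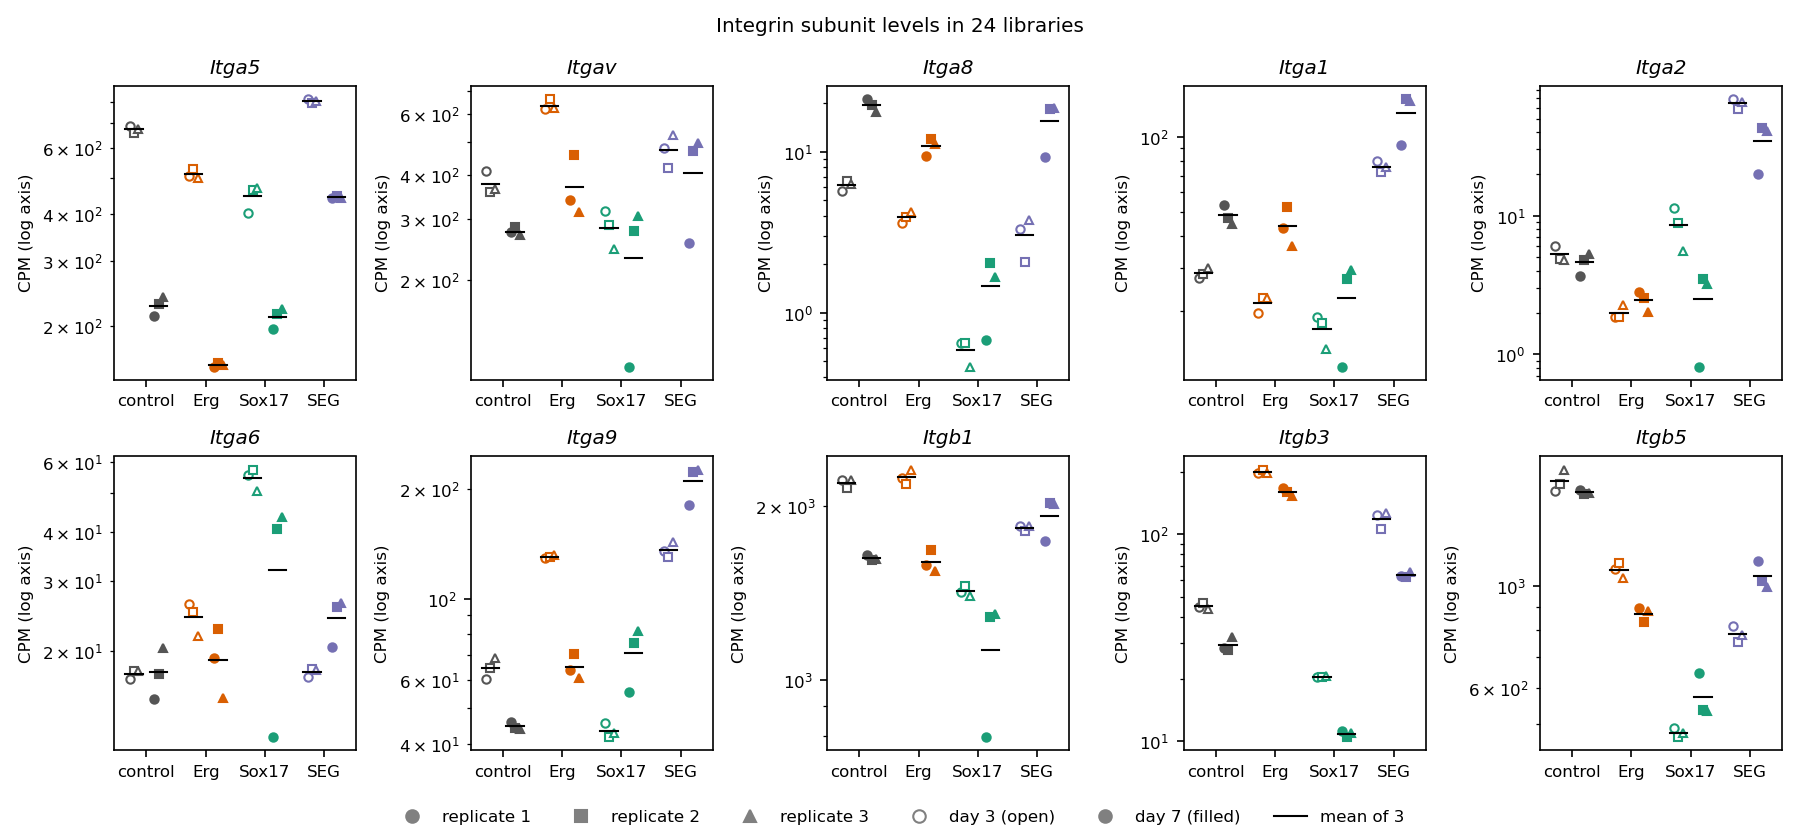
CPM of each subunit in all 24 libraries on log axes, 1 panel per subunit; open symbols are day 3, filled symbols day 7, symbol shape gives the replicate number and bars are means of 3. Itga2 stands apart in SEG, Itga8 lies lowest with Sox17, and the circles (replicate 1) of Sox17 and SEG at day 7 lie below the other 2 libraries of their group for Itgav, Itga1, Itga2 and Itga8.

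Itga6, a laminin receptor chain of endothelium and epithelia (chromosome 2, 71745616 to 71858416, plus strand), rose with Sox17. Control held 17.0, 17.8 and 17.8 CPM at day 3 and Sox17 55.5, 57.2 and 50.7, a 3.11-fold difference with no overlap (log2 change 1.64, standard error 0.29, adjusted p = 0.000108). SEG held 17.2, 18.02 and 17.9 CPM, which overlapped with control, and it was lower in SEG than with Sox17 (−1.62, adjusted p = 0.000184). Erg held 26.3, 25.1 and 21.9, above control without passing (0.48, adjusted p = 0.192), although it did without both outlying libraries (adjusted p = 0.000951). At day 7 Sox17 held 12.1, 40.6 and 43.5 CPM against 15.1, 17.5 and 20.4 in control, so that its outlying library lay below all control libraries and the other 2 above. The rise was 0.85 with all libraries (adjusted p = 0.0166) and 1.27 without both outlying ones (adjusted p = 3.89e-09), and it was lost without replicate 2 or 3 of Sox17 (adjusted p = 0.0648 and 0.0793) or replicate 1 of control (0.0676). In fits of Sox17 and control at day 7 alone, the calls of Itga2, Itga6 and Itgb1 were lost (adjusted p = 0.236, 0.215 and 0.101). SEG at day 7, with 20.4, 25.8 and 26.5 CPM, did not pass (0.45, adjusted p = 0.219) but did without both outlying libraries (0.59, adjusted p = 0.000322).

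Itga9, the chain that binds tenascin, Svep1 and Vcam1 and is needed for lymphatic valves (chromosome 9, 118606690 to 118901003, plus strand), rose with Erg and most of all with SEG. Control held 60.1, 64.7 and 68.8 CPM at day 3, Erg 129, 130 and 131, and SEG 135, 130 and 143. Both lay above control without overlap, by 1.01 (adjusted p = 3.15e-07) and 1.08 (adjusted p = 1.5e-07), and they overlapped with each other. At day 7 control held 45.9, 44.3 and 44.0 CPM and SEG 180, 223 and 225, a 4.68-fold difference (log2 change 2.23, standard error 0.12, adjusted p = 2.9e-12), while Erg, at 63.6, 70.3 and 60.7, was 1.45-fold above control (0.54, adjusted p = 0.000561). With Sox17 the sign turned between the days. Itga9 was lower at day 3, at 45.5, 41.7 and 42.7 CPM (−0.57, adjusted p = 0.000304), and higher at day 7, at 55.5, 75.6 and 81.7 (0.66, adjusted p = 4.78e-05). The Sox17 libraries overlapped with control at neither day, and this change of the effect was itself tested, as given below.

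Of the beta subunits in the set described here, Itgb3 separated the conditions most (chromosome 11, 104608000 to 104670476, plus strand). It pairs with Itgav on endothelium and other cells, and on platelets with Itga2b. Control held 44.5, 46.6 and 43.8 CPM at day 3 and 28.1, 27.7 and 31.8 at day 7, Erg 198, 205 and 197 and then 168, 161 and 154. Erg was 4.45-fold above control at day 3 (log2 change 2.15, standard error 0.073, adjusted p = 1.16e-14) and 5.51-fold at day 7 (2.46, 0.074, adjusted p = 4.21e-15). Sox17 moved the other way, with 20.3, 20.5 and 20.7 CPM at day 3 (−1.13, adjusted p = 8.58e-11) and 11.2, 10.5 and 11.0 at day 7 (−1.42, adjusted p = 2.58e-12). SEG lay between Erg and control, at 125, 106 and 127 CPM (1.41, adjusted p = 3.19e-12) and 63.1, 62.5 and 66.0 (1.13, adjusted p = 6.62e-11), and none of the 4 groups of a day overlapped.

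Because Itgb3 is also a platelet gene and macrophages can carry it, markers of both were looked at. The summed CPM of 7 megakaryocyte and platelet markers averaged 5.76 in control and 5.62 with Erg at day 3, with Ppbp at 0 in every library of both groups. It ran from 5.25 to 5.90 in control and from 10.9 to 12.9 with Erg at day 7. Of the 4 that could be tested, 1 rose and 1 fell with Erg at day 3 (22.6% and 23.5% of all genes). At day 7 all 4 rose (23.7% of all genes). The 10 macrophage markers summed to 115 to 117 CPM in control and 166 to 180 with Erg at day 3, when 3 rose and 1 fell (7 and 1 without both outlying libraries), and to 133 to 171 against 631 to 664 at day 7, when 9 rose and 1 fell, among them C1qa, Mrc1 and Spi1. None of the 10 was at 0 in a group. Their part in the level of Itgb3 was not tested.

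Itgb5, which pairs with Itgav (chromosome 16, 33829665 to 33949338, plus strand), was lower than control in all 3 conditions at both days. Control held 1606, 1660 and 1782 CPM at day 3 and 1611, 1578 and 1586 at day 7, and Sox17 490, 469 and 478 and then 645, 536 and 534. The Sox17 fall was −1.81 (standard error 0.078, adjusted p = 2.46e-13) and −1.48 (0.077, adjusted p = 3.04e-12). Erg, at 1080 ± 41.6 and 869 ± 30.9 CPM (SD, n = 3), was lower by less (−0.64, adjusted p = 7.98e-07, and −0.87, adjusted p = 1.16e-08). SEG held 785 ± 31.3 and 1048 ± 73.4 CPM (−1.10, adjusted p = 3.61e-10, and −0.60, adjusted p = 1.49e-06). No library of any of the 3 conditions reached the control range of its day, and each log2 change kept its sign when a library was left out.

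Itgb1, which can pair with each of the 7 alpha chains (chromosome 8, 128685654 to 128733200, plus strand), was lower with Sox17. It stood at 2195 ± 40.2 CPM in control and 2246 ± 62.3 with Erg at day 3, and at 1626 ± 17.8 and 1602 ± 71.4 at day 7 (SD, n = 3), overlapping at both days. Sox17 libraries held 1422, 1457 and 1397 CPM at day 3 and 797, 1285 and 1302 at day 7, all below control (−0.62, adjusted p = 0.000288, and −0.53, adjusted p = 0.00102), and without both outlying libraries the day 7 fall was −0.30 (adjusted p = 3.17e-06). SEG held 1848, 1813 and 1845 CPM at day 3, below control without passing (−0.26, adjusted p = 0.0985), and 1741, 2023 and 2013 at day 7, above it without passing (0.24, adjusted p = 0.112). Both passed without both outlying libraries (adjusted p = 3.97e-06 and 3.04e-07), and the second also without the outlying SEG library alone (0.35, adjusted p = 0.0366).

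Divided by the length of each gene's merged exons, the transcripts could be ranked within a group. In control at day 3 Itga5 stood at 137 ± 2.76 CPM per kb and took 73.8% of the sum over the 7 alpha subunits, Itgav took 18.9%, and Itga9 ranked 3. Itga5 led in 7 of the 8 groups. In Erg at day 7 its share was 39.6% ± 3.85 against 42.3% ± 3.91 for Itgav (SD, n = 3), a difference within the spread of the libraries. Itga2 took 0.396% in control at day 3 and 3.76% in SEG, where it ranked 4. The alpha sum was 186 ± 4.96 CPM per kb in control at day 3, 131 ± 4.81 with Sox17 and 240 ± 8.14 with SEG, and at day 7 it was 85.3 ± 2.43 in control and 171 ± 20.2 in SEG (SD, n = 3). The beta sum was lowest with Sox17, 488 ± 6.35 CPM per kb at day 3 against 1019 ± 28.8 in control. Among the beta chains Itgb1 was above Itgb5 and Itgb5 above Itgb3 in every group except control at day 7, where Itgb5 (448 CPM per kb) exceeded Itgb1 (399). With the length of the longest coding transcript instead, a choice added after the data were seen, the first 2 ranks of each chain were the same, while lower ranks moved in 4 groups. Itga8 ranked 6 rather than 4 in control at day 7, where Itga1 and Itga6 each moved up by 1, Itga1 and Itga6 changed places in Erg at day 7, Itga2 and Itga1 in Sox17 at day 3, and Itga2 and Itga6 in SEG at day 7.

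**Figure D3:**
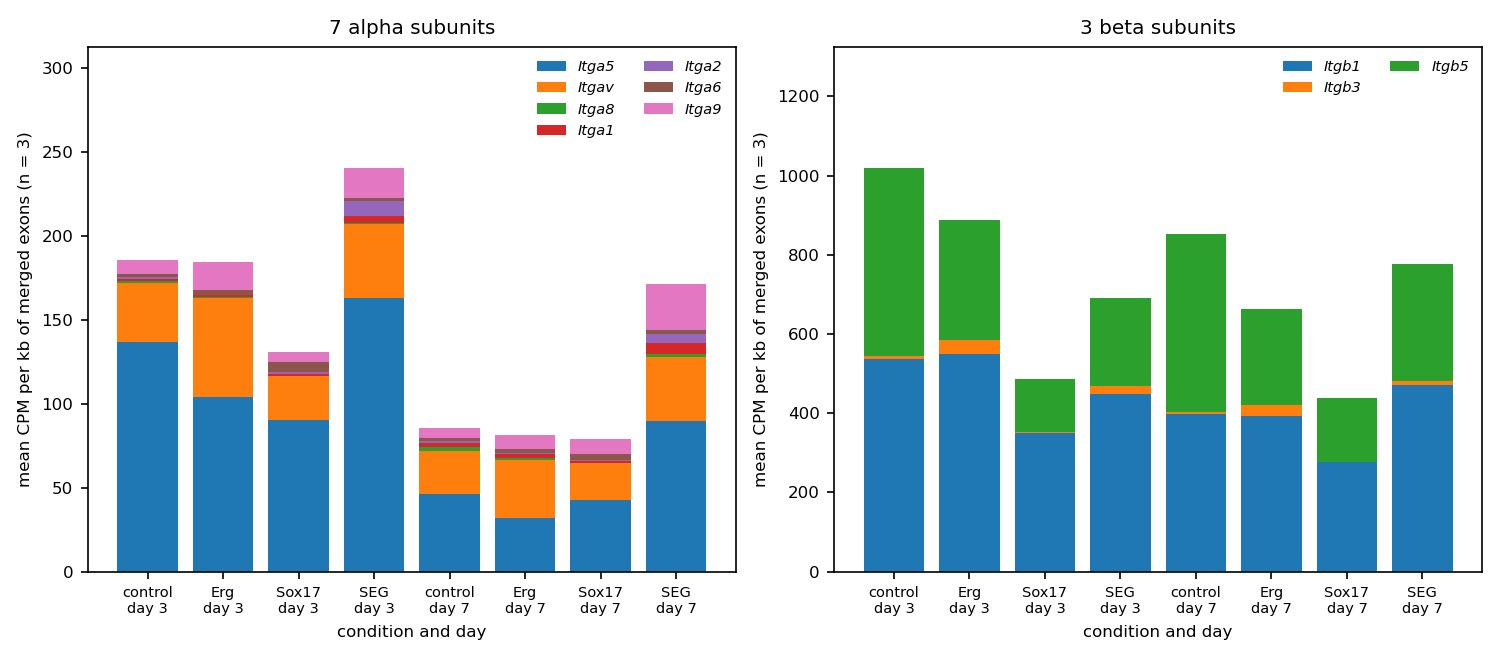
Mean CPM per kb of merged exons in each of the 8 groups (3 libraries each), stacked over the 7 alpha subunits on the left and the 3 beta subunits on the right. Itga5 and Itgav make up most of the alpha sum in every group, the alpha sum is highest in SEG at day 3 (240 CPM per kb), and the beta sums with Sox17 are the lowest of their day.

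The conditions were then compared with each other. SEG exceeded Sox17 in nearly every subunit: at day 3 all 10 passed (28.3% of all genes did), 9 higher (14%) and only Itga6 lower (14.2%), and at day 7, 9 passed (39.9%), all higher (18.8%; 21.2% of all genes were lower). At day 7 the exception was Itga6 (−0.40, adjusted p = 0.272), which was lower in SEG without the outlying Sox17 library (−0.79, adjusted p = 4.3e-05). The largest differences at day 7 were Itga2 (log2 change 3.82), Itga8 (3.42) and Itgb3 (2.55). At day 3 the calls of Itgav (0.75, adjusted p = 0.0411) and Itgb1 (0.36, adjusted p = 0.0279) were lost whichever of the 6 libraries was left out, with adjusted p from 0.0510 to 0.144, and at day 7 that of Itgav (0.81, adjusted p = 0.0201) was lost without replicate 2 or 3 of SEG (0.0820 and 0.101). In fits of SEG and Sox17 at day 7 alone, the calls of Itgav and Itgb1 were lost (adjusted p = 0.304 and 0.0746).

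SEG against Erg gave 5 subunits at day 3 (51% of all genes passed), 3 higher (25.7%) and 2 lower (25.3%), and 6 at day 7 (49.4%), 5 higher (24.7%) and 1 lower (24.8%). The shares that passed in either direction were close to those of all genes. At day 7 the share of subunits that was higher lay above that of all genes, and the share that was lower lay below it. Itga2 was 32.2-fold higher in SEG than with Erg at day 3 (log2 change 4.99, adjusted p = 3.25e-09) and Itga1 3.51-fold (1.81, adjusted p = 2.03e-06), while Itgb3 was lower at both days (−0.75, adjusted p = 2.33e-08, and −1.33, adjusted p = 5.2e-12). Itgb5 turned from lower (−0.46, adjusted p = 3.75e-05) to higher (0.27, adjusted p = 0.00563). Without both outlying libraries 9 subunits passed at day 3 and 10 at day 7, when 67.2% and 68.2% of all genes passed, and at day 7 Itga8 (0.77, adjusted p = 0.0172) and Itgb1 (0.33, adjusted p = 0.0417) already passed without the outlying SEG library alone.

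Sox17 against Erg gave 9 subunits at day 3 (55.3% of all genes), 2 higher (28.4%) and 7 lower (26.8%), and 8 at day 7 (55%), 2 higher (29.1%) and 6 lower (25.9%). Itgb3 was 9.75-fold and 14.8-fold lower with Sox17 than with Erg (log2 change −3.29, adjusted p = 1.75e-17, and −3.88, adjusted p = 3.73e-18). At day 3 Itga6 (1.16, adjusted p = 0.0017) and Itga2 (2.09, adjusted p = 0.000121) were the 2 that were higher with Sox17. Some of the smaller calls were lost when single libraries were left out. At day 3 that of Itga5 (−0.20, adjusted p = 0.0157) was lost without replicate 1 of Sox17 (0.119) or replicate 2 of Erg (0.0640). At day 7 that of Itgav (−0.68, adjusted p = 0.0367) was lost without the outlying Sox17 library (0.121) or replicate 2 of Erg (0.164), and that of Itga6 (0.75, adjusted p = 0.0311) without replicate 2 or 3 of Sox17 (0.145 and 0.183) or replicate 1 or 3 of Erg (0.0680 and 0.124). Itga9 passed at day 7 without the outlying Sox17 library (0.28, adjusted p = 0.00677), and Itga1 at day 3 without both outlying libraries (−0.35, adjusted p = 0.00837). In fits of Sox17 and Erg at day 7 alone, the calls of Itga1, Itga6, Itgav and Itgb1 were lost (adjusted p = 0.0791, 0.275, 0.230 and 0.1247).

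Whether SEG equals the sum of the single log2 changes of Erg and Sox17 was tested in the same fit. At day 3, 8 subunits differed from the sum (36% of all genes did), 7 above it (18.2%) and 1 below it (17.8%), and at day 7, 7 differed (48.8%), all above (23.8%; 25% of all genes lay below). Itga2 lay furthest above. The single changes summed to −0.66 at day 3, while SEG changed by 3.62, a difference of 4.27 (standard error 0.53, adjusted p = 2.49e-06), and the difference at day 7 was 4.74 (adjusted p = 6.29e-07). Itga8 followed, with 3.00 (adjusted p = 3.21e-05) and 4.27 (adjusted p = 5.92e-08), then Itga1 with 2.54 (adjusted p = 4.2e-06) and 2.60 (adjusted p = 2.04e-06). For Itga1, Itga2 and Itga5 the change in SEG had the opposite sign to the sum at both days (for Itga5 0.25 against −0.999 and 0.97 against −0.63), as it did for Itgb1 at day 7 (0.24, which did not pass against control, against −0.55). For Itga8 the fall at day 3 was smaller in SEG (−1.02) than with Sox17 (−3.37). At day 7 Itga8 in SEG did not pass against control (−0.33), while with Sox17 it fell (−3.76). Itga6 lay below the sum at day 3 (−2.10, adjusted p = 0.000379). At day 7 it did so without the outlying Sox17 library (−0.88, adjusted p = 0.000391). For Sox17 and SEG at day 7, a block for the replicate number brought the distance of Itgav from the sum at day 7 past the threshold (0.45, adjusted p = 0.0292). Replicate 1 is the outlying library in both groups, so this block cannot tell pairing from the outlying libraries. Without both outlying libraries the distance of Itgav was 0.25 and did not pass (adjusted p = 0.214). Itgb5 (1.35 and 1.75), Itga5 (1.25 and 1.59) and Itga9 (0.64 and 1.03) lay above the sum at both days, Itgb3 at day 3 (0.39, adjusted p = 0.00467) and Itgb1 at day 7 (0.79, adjusted p = 0.000777) and, without both outlying libraries, also at day 3 (0.31, adjusted p = 3.81e-05). The sum takes each factor at its level alone, and SEG held less of both at day 3: Erg stood at 1268 ± 13.7 CPM in SEG against 7087 ± 46.9 with Erg at day 3, and Sox17 at 1008 ± 49.9 against 1606 ± 53.0 (SD, n = 3). At day 7 Erg stood at 961 ± 109 against 5138 ± 751 CPM, and the Sox17 levels overlapped. What part this has in the differences was not tested.

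**Figure D4:**
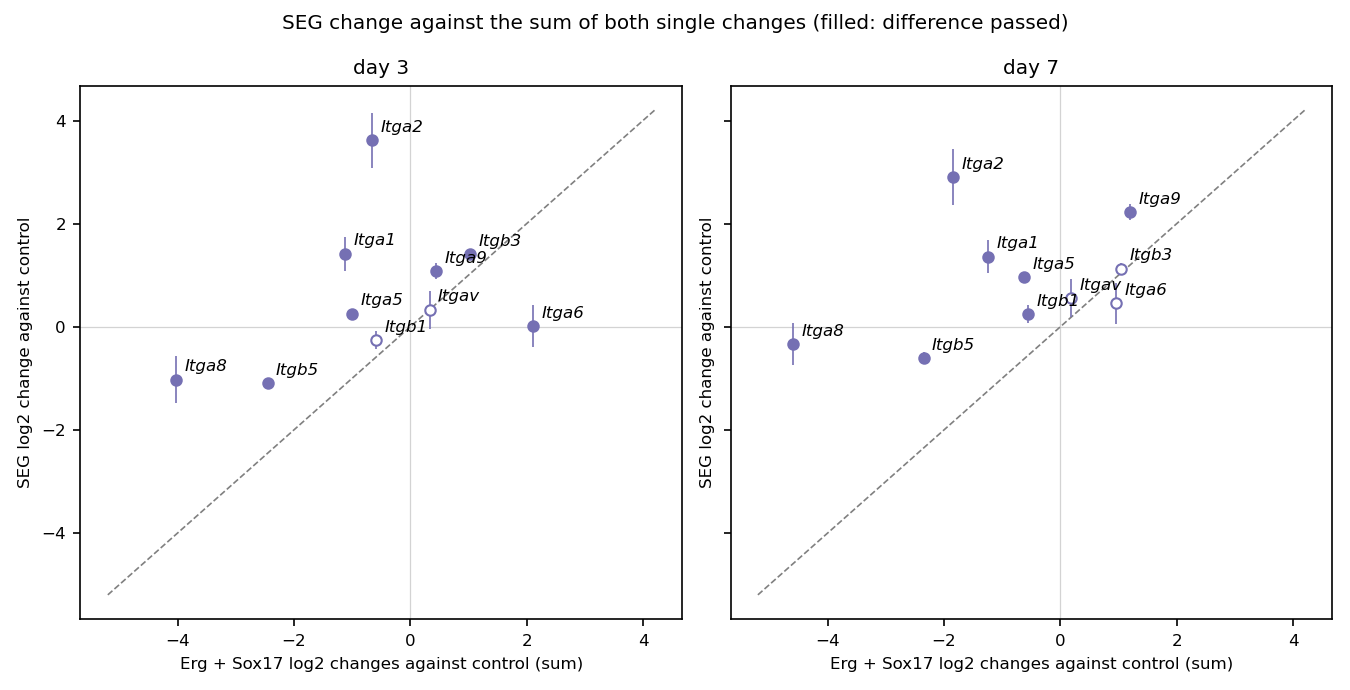
Log2 change of SEG against control (vertical) over the sum of the log2 changes of Erg and of Sox17 against control (horizontal) at day 3 and day 7; the dashed line marks equality, vertical bars are the standard error of the difference between SEG and the sum, and filled points passed. Itga2, Itga1 and Itga5 lie above 0 in SEG with sums below 0 at both days, and Itga6 lies below the line at day 3.

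Most subunits differed between the days in each condition, and the cause was not tested. From day 3 to day 7, 6 passed in control (29.5% of all genes did), 2 higher (16.1%) and 4 lower (13.4%), 8 with Erg (30%), 2 higher (15.6%) and 6 lower (14.4%), 8 with Sox17 (29.5%), 3 higher (16.6%) and 5 lower (12.9%), and 7 with SEG (27.2%), 4 higher (14.3%) and 3 lower (12.9%). Itga5 fell in all 4 conditions, by 1.57 in control (adjusted p = 2.96e-12), by 1.70 with Erg (adjusted p = 1.26e-12), by 1.08 with Sox17 (adjusted p = 9.16e-10) and by 0.86 with SEG (adjusted p = 1.05e-08). Itgb3 fell in all 4 as well, by between 0.31 and 0.91. Itga8 rose in all 4, from 1.26 with Sox17 (adjusted p = 0.0136) to 2.34 with SEG (adjusted p = 4.49e-06), the first being lost without replicate 3 of day 3 (adjusted p = 0.0502) or replicate 2 of day 7 (0.0758).

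Itga1 rose in control (0.77, adjusted p = 0.0152), with Erg (1.02, adjusted p = 0.00218) and with SEG (0.71, adjusted p = 0.0233). The call in control was lost without replicate 1 of either day (adjusted p = 0.0546 and 0.0590), and that in SEG without any 1 library other than the outlying one (0.0506 to 0.0945), while Sox17 passed without its outlying library (0.71, adjusted p = 0.00165). Itga9 fell in control (−0.53, adjusted p = 0.00119) and with Erg (−1.01, adjusted p = 1.1e-06) and rose with Sox17 (0.71, adjusted p = 7.7e-05) and SEG (0.62, adjusted p = 0.000219). Itgb1 fell in control (−0.43, adjusted p = 0.00966), with Erg (−0.49, adjusted p = 0.00425) and with Sox17 (−0.34, adjusted p = 0.0407), the last being lost without any 1 replicate of day 3 (0.0688 to 0.105) and without the outlying library (−0.14, adjusted p = 0.0696). Itgb5 fell with Erg (−0.31, adjusted p = 0.00348) and rose with Sox17 (0.26, adjusted p = 0.0157) and SEG (0.42, adjusted p = 0.000283), the call with Sox17 being lost without its replicate 2 of day 3 (0.0622) or its outlying library (0.16, adjusted p = 0.0531).

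Other calls between the days depended on the libraries or the fit used. Itga2 fell with Sox17 (−1.81, adjusted p = 0.000978) and with SEG (−0.90, adjusted p = 0.0498), the latter being lost without any 1 replicate of day 3 (0.0752 to 0.122), without the outlying library (−0.60, adjusted p = 0.221) and without replicate 3 of day 7 (0.0610), and also with other size factors, without the filter or in DESeq2 (adjusted p = 0.0550 to 0.0658), but it passed without both outlying libraries (−0.60, adjusted p = 0.0029). Itga6 fell with Sox17 (−0.77, adjusted p = 0.0453), which was lost without any 1 replicate of day 3 (0.0665 to 0.110) and was −0.36 without both outlying libraries. Other size factors or no filter also ended that call (0.0521 and 0.0582) and the fall of Itgb1 with Sox17 (0.0562 and 0.0745). Itgav fell with Erg (−0.78, adjusted p = 0.0327), which was lost without any 1 library other than replicate 2 of day 7 (0.0663 to 0.128). In a fit of the Sox17 groups alone, the calls between the days of Itga2 (adjusted p = 0.136), Itga6 (0.411), Itga8 (0.177), Itga9 (0.0760), Itgb1 (0.451) and Itgb5 (0.335) were lost. Without both outlying libraries, Itgav was lower at day 7 in control (−0.47, adjusted p = 0.00111), Itga6 was lower with Erg (−0.34, adjusted p = 0.0133) and higher in SEG (0.59, adjusted p = 0.000516), and Itgb1 was higher in SEG (0.16, adjusted p = 0.00348).

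The change of each factor's effect between the days was tested as the difference of the differences. With Erg, 2 subunits passed (19.7% of all genes did), 1 with a higher effect at day 7 (9.34%) and 1 with a lower one (10.4%). With Sox17, 4 passed (14.3%), 3 higher (7.61%) and 1 lower (6.66%), and with SEG 3 passed (11.9%), all higher (6.09%; 5.77% of all genes were lower). Itga9 passed in all 3: its effect went down by 0.48 with Erg (adjusted p = 0.0388) and up by 1.24 with Sox17 (adjusted p = 1.64e-05) and 1.15 with SEG (adjusted p = 4.05e-05). Itga5 passed with Sox17 (0.50, adjusted p = 0.000971) and SEG (0.71, adjusted p = 2.62e-05), and so did Itgb5 (0.34, adjusted p = 0.0416, and 0.50, adjusted p = 0.00349). Without both outlying libraries 7 subunits passed with SEG, Itga6, Itga8, Itgav and Itgb1 being added, when 25.2% of all genes passed. Itgb1 (0.32, adjusted p = 0.000169) and Itgav (0.53, adjusted p = 0.0192) then passed with Sox17, and Itgb5 with Erg (−0.20, adjusted p = 0.0123). Both calls with Erg, and those of Itga2 and Itgb5 with Sox17, were lost when single libraries were left out, without the filter on low counts (adjusted p = 0.0536 to 0.0903), and, for Itga2 and Itgb5, in a fit of the groups compared alone (0.148 and 0.230).

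The subunits' patterns over the 8 group means of log2 CPM were set beside each other and beside 10329 other genes, as a description over groups that share libraries with no test. Among the 10, Itgav and Itgb3 were most alike (Pearson r = 0.90 over 8 groups), then Itgav and Itgb1 (0.86) and Itga8 and Itgb5 (0.81), and the neighbours Itga1 and Itga2 had r = 0.72. The most alike genes were Scin, an actin-severing protein, and Spata6 for Itga2 (0.99 and 0.98), Vegfc, the lymphatic growth factor, and Atp1b1, a subunit of the sodium pump, for Itga8 (0.99 and 0.97), Tmem181a and Ccdc59 for Itgav (0.99 and 0.98), and Arhgap26 and Chst7 for Itgb3 (0.98 and 0.98). They were Ppp4r1 and Mboat7 for Itga5 (0.97 and 0.97), Klf13 and Auts2 for Itgb5 (0.97 and 0.97), Lasp1, a focal adhesion protein, and Srd5a3 for Itgb1 (0.97 and 0.96), Ppt2 and Degs1 for Itga9 (0.95 and 0.94), Crispld1 and Bmi1 for Itga1 (0.95 and 0.95), and Rdh10, an enzyme of retinoic acid synthesis, and Dhrs11 for Itga6 (0.94 and 0.92).

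Of 10 further integrin subunits, 9 could be tested. With Erg 4 rose and 2 fell at each day (22.6% and 23.5% of all genes at day 3, 23.7% and 24.8% at day 7). With Sox17 3 rose and 3 fell at day 3 (20.8% and 19.6%), and 5 rose and 1 fell at day 7 (29.5% and 25%). With SEG 4 rose and 2 fell at day 3 (20% and 20.2%), and 7 rose and 1 fell at day 7 (22.5% and 21.8%). The number that fell with Erg, and with SEG at day 3, was near the share of all genes. Itgb4, the other partner of Itga6 and a part of hemidesmosomes, stood at 330.4 ± 8.37 CPM with Erg against 2.77 ± 0.107 in control at day 3 (SD, n = 3; log2 change 6.89, adjusted p = 2.64e-18), while 5 epithelial markers summed to 0.175 CPM on average in control and 0.659 with Erg at day 3, and to 0.295 and 1.11 at day 7. The 1 of them that could be tested, Epcam, was at 0 in every control library and stood at 0.734, 0.391 and 0.288 CPM with Erg at day 3 (13, 8 and 10 counts), which passed as higher (adjusted p = 0.00183). Their part in the level of Itgb4 was not tested. Itga7, a laminin receptor chain of muscle, rose with Erg (143 ± 7.77 CPM, log2 change 2.98) and with Sox17 (81.3 ± 1.04 CPM, 2.16) from 18.1 ± 0.656 CPM in control at day 3. Of the 8 smooth muscle markers 3 rose and 3 fell with Erg and 5 rose and 1 fell with Sox17 at day 3, among them Acta2, which fell with Erg (−1.02) and rose with Sox17 (2.33), and their part in the level of Itga7 was not tested. Itgb8, the partner of Itgav that activates latent TGF-beta, stood at 332 ± 70.1 CPM with Sox17 against 18.5 ± 1.01 in control (4.16, adjusted p = 1.14e-07), and in SEG at 55.5 ± 4.84 CPM (1.58, adjusted p = 0.00291). Of 6 leukocyte integrin genes 4 could be tested, of which 2 rose with Erg at day 3 (22.6% of all genes) and 4 at day 7 (23.7%). Itgal stood at 17.3 ± 0.515 CPM against 0.285 ± 0.190 at day 3 (5.93) and at 12.9 ± 1.76 against 0.304 ± 0.185 at day 7 (5.40), and Itgb2 at day 7 at 16.9 ± 1.65 against 10.2 ± 0.611 (SD, n = 3), beside the macrophage markers given above, whose part in this was not tested.

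Matrix ligands of integrins and the proteins that bind their tails were counted in the same way. Of 27 ligand genes tested at day 3, 6 rose and 11 fell with Erg, 9 rose and 12 fell with Sox17 and 6 rose and 11 fell with SEG. Of all genes, 22.6% rose and 23.5% fell with Erg, 20.8% and 19.6% with Sox17, and 20% and 20.2% with SEG, so the number of ligand genes that rose with Erg and SEG was near the share of all genes. The counts without both outlying libraries were 8 and 15, 12 and 13, and 9 and 12, when 63.2%, 57.6% and 57.4% of all genes passed in either direction. Lama5, a laminin chain of basement membranes, rose with Erg (92.8 ± 1.82 against 20.03 ± 1.71 CPM), Lama1 with Sox17 (117 ± 6.20 against 3.04 ± 0.421), and Vcam1 and Tnc, ligands of Itga9, with each of the 3. In SEG, Vcam1 stood at 2184 ± 71.2 CPM and in control at 554 ± 13.0. Svep1, another ligand of Itga9, and the fibrillar collagen gene Col3a1 fell with each of the 3, Svep1 to 54.9 ± 7.78 in SEG from 261 ± 9.71 (SD, n = 3). Of 31 adhesion proteins of the cytoplasmic side, 6 rose and 12 fell with Erg, 11 rose and 7 fell with Sox17 and 5 rose and 7 fell with SEG at day 3. When both outlying libraries were left out, the counts were 10 and 19, 12 and 12, and 10 and 12. Parvb, an adaptor at the integrin-linked kinase, rose with Erg (log2 change 1.41, adjusted p = 2.57e-12), Sox17 (0.65, adjusted p = 1.42e-07) and SEG (2.15, adjusted p = 4.68e-15), Vcl with Sox17 (1.43, adjusted p = 0.00409), and the tensins Tns1 and Tns2 fell with Sox17 (−1.57 and −2.14) and SEG (−1.19 and −1.33), while Tns2 rose with Erg (1.15, adjusted p = 3.4e-10). For both lists the medians at day 3 lay between −0.33 and 0.09, with −0.01 to 0.01 for all genes.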

How the data were processed

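Messenger RNA libraries of 8 groups, 3 each, were deposited as whole-number counts per Ensembl gene. Salmon, DESeq2 and the build mm10 are named in the submitters' processing notes. For tool versions, annotation release and strand setting, nothing is given in the sources used here. Names and exon lengths came from GENCODE vM21 (35493 of 35727 identifiers matched). The integrin subunits, the gene lists and the choice of outlying libraries were made with earlier results of these data known.

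The deposited counts were scaled by TMM and tested in R 4.3.3 with edgeR 4.0.16: filterByExpr with a minimum count of 10 (14804 genes), 1 quasi-likelihood fit of the 8 group means over 24 libraries, 21 comparisons, 2-sided, Benjamini-Hochberg adjustment over all genes tested. An adjusted p under 0.05 counts as passing, and "rose" and "fell" are used of those. The prior count of the fit was 0.125. Fold values are ratios of mean CPM. The test was also run on simulated counts in which a small set of genes was raised in 1 group. Those counts held no outlying library and far fewer changed genes than these data. They therefore do not measure how reliable the calls given here are. Alternatives were other size factors (RLE), no filter, a replicate block, only the groups compared, DESeq2 1.42.0, a test beyond 1.5-fold (edgeR), each library left out, and both outlying libraries left out.

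Same-numbered libraries deviated together (all 3 correlations over 0.1) in 1 of 28 pairs of groups, Sox17 and SEG at day 7 (0.69, 0.40 and 0.44). Replicate 1 is the outlying library in both groups, and deviations were taken from the mean of 3 libraries. These correlations therefore cannot tell pairing from the outlying libraries. A block within those groups alone, and coding length, were choices made after seeing the data. The subunits are named by the members' list, and the 2 most alike genes by the correlation of group means of log2 CPM (prior count 2) among genes of at least 10 CPM in a group. Itga1 shares exon bases with Gm49395, and Itga8 and Itgav overlap antisense genes that were not used here. Without the strand setting, such reads cannot be told apart.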

Additional observations from a re-analysis of the deposited data

Results flagged for a closer look

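The effect of a factor against control differed between day 3 and day 7, by edgeR's quasi-likelihood test of the difference itself, for 9 combinations of subunit and factor. For Itga9 the change was −0.48 with Erg (adjusted p = 0.0388), 1.24 with Sox17 (adjusted p = 1.64e-05) and 1.15 with SEG (adjusted p = 4.05e-05) on the log2 scale. For Itga5 it was 0.50 with Sox17 (adjusted p = 0.000971) and 0.71 with SEG (adjusted p = 2.62e-05). For Itgb5 it was 0.34 with Sox17 (adjusted p = 0.0416) and 0.50 with SEG (adjusted p = 0.00349). Itga2 changed by −1.63 with Sox17 (adjusted p = 0.0431) and Itgb3 by 0.31 with Erg (adjusted p = 0.0348).

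Of these calls, 4 were close to the threshold and were lost when any 1 of several libraries was left out. With Erg, the change of Itga9 was lost without any 1 of its 12 libraries except replicate 3 of control at day 3 and replicate 2 of Erg at day 7, and that of Itgb3 without any 1 of replicates 1 and 2 of control at either day, replicate 3 of Erg at day 3, or replicates 1 and 2 of Erg at day 7. With Sox17, the change of Itga2 was lost without any 1 control library or replicate 1 or 2 of Sox17 at day 3, and that of Itgb5 without any 1 library of control or Sox17 at day 3 other than replicate 1 of control, or any 1 of control at day 7. The adjusted p of those refits ran from 0.0508 to 0.123. In the refits that lost it, the change of Itga9 ran from −0.49 to −0.43. Without both outlying libraries, the changes of Itga2 and Itgb5 with Sox17 passed (adjusted p = 0.0046 and 0.00401).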

How the results depend on the processing

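Of the 10 subunits, the number passing per comparison is given under each alternative where it moved by more than 1.5 times. In the test beyond 1.5-fold it was 3 with Erg and 4 with Sox17 at day 3, 2 and 4 at day 7, 3 in SEG against Erg at day 3 and 2 in Sox17 against Erg at day 7. Between the days it was then 2 in control and 3 each with Erg, Sox17 and SEG, and for the change of the effect 0 with Erg, 1 with Sox17 and 1 with SEG. Without the filter the changes of effect gave 0 with Erg and 2 with Sox17. Beside these counts of 0 with Erg in edgeR, 2 subunits had an unadjusted p under 0.05 without the filter and 0 beyond 1.5-fold, and DESeq2 with its own filter called 2. Without both outlying libraries 9 and 10 passed in SEG against Erg at day 3 and day 7, and 7 for the change of the SEG effect. With only the groups compared 5 passed with Sox17 at day 7, 8 in SEG against Erg at day 3, 4 in Sox17 against Erg at day 7, 2 between the days with Sox17, and 2 for the change of the Sox17 effect. Leaving out single libraries gave 0 to 2 for the change of the Erg effect, 2 to 6 for that of Sox17, and 5 to 8 between the days with Sox17.

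Among differences that passed or were at least 0.1 on the log2 scale, direction turned for 7, none of which passed. Without both outlying libraries these were Itgav with Sox17 at day 7 (0.12), between the days with Sox17 (0.062) and SEG (0.048), and Itga8 for the change of the Sox17 effect (0.023). Over single libraries left out, Itgav ran from −0.46 to 0.080 with Sox17 at day 7, from −0.53 to 0.042 between the days with Sox17, from −0.39 to 0.0438 between the days with SEG, from −0.053 to 0.50 for the change of the Sox17 effect and from −0.034 to 0.37 in SEG against Erg at day 7, and Itga6 from −0.0444 to 0.24 with Erg at day 7. The 13 differences that were smaller and did not pass changed sign in 26 of their alternatives, at most to −0.36 (Itga2 in Sox17 against Erg at day 7 without replicate 2 of Sox17) and 0.16 (Itga1, change of the SEG effect, without both outlying libraries), and passed in 3, all of Itgb1. Itgb1 in SEG against Erg at day 3, at an adjusted p of 0.0507 in the main fit, passed with a replicate block over all groups (−0.29, adjusted p = 0.0488). It also passed with other size factors (0.0313), in DESeq2 (0.0303), with only the groups compared (2.55e-06) and without both outlying libraries (3.12e-07). With the block, Itga2 with Sox17 at day 7 (adjusted p = 0.0531) and between the days in SEG (0.0515) did not pass. In DESeq2, Itgb1 passed for the change of the SEG effect (0.0304). The cause of these shifts was not tested. Low counts limit Itga8 with Sox17.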
